A study of Mus musculus with 13 samples.

Results

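Cyp3a11, Cyp3a13, Cyp3a25 and Cyp2b10, cytochrome P450 oxidases of drugs and bile acids, were followed with the nuclear receptors that control such genes, Nr1i2 (PXR), Nr1i3 (CAR) and Rxra (RXR alpha), in the epithelium of the mouse jejunum under meal skipping. The genes were chosen by symbol, and 7 of 7 were found among the 21868 symbols of the count table. All 7 passed the filter on low counts, among 14300 genes tested. The libraries were made from cells sorted by flow cytometry for EpCAM, with leukocytes that carry CD45, CD11b, CD3 or B220 gated out. Feeding windows are in Zeitgeber time (ZT, hours after lights on), and the skipping patterns were kept for 2 weeks. Breakfast skipping (BSF) had food from ZT16 to ZT24 (2 libraries). Lunch skipping (LSF) had food in the windows ZT12 to ZT16 and ZT20 to ZT24 (3 libraries). Dinner skipping (DSF) had food from ZT12 to ZT20 (2 libraries). A group labelled as breakfast skipping combined with control (BSF_C) had 3 libraries, and the control group (con) had 3. The feeding windows of con and BSF_C, and the strain, age, sex and hour of sampling of every group, are not given in the sources used here. The mice were housed together, no genetic change is named for any group, and nothing says whether libraries came from single or pooled mice, so the p-values speak only of the spread among the libraries sequenced.

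PXR and CAR are receptors that respond to drugs, bile acids and other foreign or endogenous chemicals. Each binds DNA with RXR alpha as its partner and switches on oxidases, conjugating enzymes and efflux pumps. PXR is best known for its control of Cyp3a genes and CAR for that of Cyp2b10, with much overlap between them. In the small intestine these oxidases sit in absorptive enterocytes, where they metabolise compounds taken up with food before these reach the portal blood. Both receptors recognise pairs of a short DNA hexamer close to AGGTCA, placed as direct or everted repeats with different spacing.

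The 3 Cyp3a genes studied lie on chromosome 5 (GRCm38, GENCODE release M21), on the minus strand. Cyp3a11 (ENSMUSG00000056035.8) covers chr5:145854426-145879964 and Cyp3a25 (ENSMUSG00000029630.15) covers chr5:145977194-146009618, while Cyp3a13 (ENSMUSG00000029727.7) lies apart at chr5:137892932-137921619. Cyp2b10 (ENSMUSG00000030483.14) is at chr7:25897620-25926624 on the plus strand. Nr1i2 (ENSMUSG00000022809.4) is at chr16:38248323-38294824 on the minus strand, Nr1i3 (ENSMUSG00000005677.14) at chr1:171213970-171220701 on the plus strand and Rxra (ENSMUSG00000015846.14) at chr2:27676440-27762957 on the plus strand.

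The promoters of the 3 Cyp3a genes are shown because these paralogs moved by different amounts between feeding patterns. Any link between sequence and level was not tested. Each stretch comes from RefSeq on GRCm38.p6, runs 5′ to 3′ on the minus strand from base -250 to base -111 before the gene's RefSeq start, and holds no exon of that gene. The RefSeq start equals the GENCODE start for Cyp3a13 and Cyp3a25, and for Cyp3a11 it is base 145879854, 110 bases inside the GENCODE gene. Capitals mark the hexamer AGNTCA on either strand.
Cyp3a11, chr5:145879965-145880104: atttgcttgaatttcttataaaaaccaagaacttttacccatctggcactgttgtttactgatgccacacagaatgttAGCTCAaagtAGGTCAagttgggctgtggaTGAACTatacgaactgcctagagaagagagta
Cyp3a25, chr5:146009729-146009868: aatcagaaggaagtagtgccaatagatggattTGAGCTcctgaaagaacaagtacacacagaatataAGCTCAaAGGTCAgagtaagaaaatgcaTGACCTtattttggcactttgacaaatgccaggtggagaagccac
Cyp3a13, chr5:137921730-137921869: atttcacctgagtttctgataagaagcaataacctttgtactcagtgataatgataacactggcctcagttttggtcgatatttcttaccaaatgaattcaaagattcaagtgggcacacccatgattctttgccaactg
The Cyp3a11 stretch holds 2 hexamers spaced by 4 bases, AGCTCAAAGTAGGTCA (direct repeat DR4, first base -172), and another on the other strand at -142. In the Cyp3a25 stretch 2 hexamers are spaced by 1 base, AGCTCAAAGGTCA (DR1, first base -183), with 2 more on the other strand at -155 and -218. No AGNTCA occurs on either strand in the 250 bases before the start of Cyp3a13, Cyp2b10 or Nr1i2. Sequence further upstream was not searched for any gene, so an absence here does not mean that a gene lacks such elements. The motifs searched, on both strands, were AGNTCA itself, 2 copies of it in 1 orientation with 1 (DR1), 3 (DR3) or 4 (DR4) bases of any kind between, and TGANCT followed after 6 such bases by AGNTCA (the everted repeat ER6), so that each repeat also counts as the hexamer. Among 32536 RefSeq mouse promoters of the same length, 41.1% held AGNTCA, 0.104% held DR4 and 0.184% held DR1. DR3 (0.052% of promoters) and ER6 (0.031%) were not found in the windows of these 7 genes. A match is a description of the sequence and not a measured binding site.

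Library totals were 4851239 to 5202146 counts in con and 7127769 to 8589351 in the other 10 libraries. In all groups 8 of 8 intestinal epithelial markers had counts, and their summed level was 6751 to 7877 CPM (counts scaled to library size by trimmed means). The near-equal sums hide shifts of single markers between con and BSF in both directions. Epcam, the marker of the sort, averaged 193 CPM in con and 335 in BSF, while Cdh1 averaged 2020 and 750. The con libraries stood apart. Absorptive enterocyte markers (10 genes) summed to 5230 to 5956 CPM in con and to 22200 to 33990 CPM elsewhere, and keratinocyte markers (10 of 10 present in con) summed to 595 to 699 CPM in con and to at most 6.20 CPM elsewhere. For this reason the comparisons among the feeding patterns come first. In bulk RNA, fewer cells of a type and less RNA per cell cannot be told apart.

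Cyp3a11, a main oxidase of drugs and secondary bile acids, had the largest difference between LSF and BSF of the 7 genes. Its level was 162 and 174 CPM in the BSF libraries and 173, 174 and 169 CPM in BSF_C. In LSF it was 694, 743 and 732 CPM, and in DSF 188 and 167 CPM. All 3 LSF libraries lay far above every other library, while BSF, BSF_C and DSF overlapped. Cyp3a11 rose 4.30-fold in LSF over BSF (log2 fold change 2.10 ± 0.06 SE, edgeR's quasi-likelihood test, Benjamini-Hochberg adjusted p = 1.038e-32) and 4.06-fold over DSF (2.02 ± 0.06, adjusted p = 4.533e-32). DSF differed from BSF by 0.08 ± 0.07 and did not pass (adjusted p = 0.5216). The order of the levels was LSF, DSF, BSF_C and BSF, with the last 3 within their spread.

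Cyp3a13, a P450 of the same family that is expressed outside the liver as well as in it, had the same order of groups, with a smaller rise in LSF. Its level was 225 and 250 CPM in BSF and 247, 238 and 241 CPM in BSF_C. The LSF libraries had 519, 543 and 552 CPM and the DSF libraries 279 and 271 CPM. No LSF library overlapped another group, and both DSF libraries lay slightly above all BSF and BSF_C libraries. The rise in LSF was 2.26-fold over BSF (1.18 ± 0.06, edgeR, adjusted p = 1.95e-22) and 1.96-fold over DSF (0.97 ± 0.06, adjusted p = 4.778e-19). The step from BSF to DSF was small (0.21 ± 0.07, adjusted p = 0.02957). It no longer passed without BSF replicate 1 (0.14, adjusted p = 0.362), without the DSF library in column S2 (0.19, 0.213) or without the one in column S3 (0.23, 0.095).

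Cyp3a25, the third oxidase of the family in these cells, was the member that also rose clearly in dinner skipping. It stood at 92.6 and 125 CPM in BSF and at 105, 105 and 122 CPM in BSF_C. LSF had 352, 372 and 369 CPM, and DSF had 219 and 239 CPM. The groups fell on 3 separate levels, with BSF and BSF_C together at the lowest, DSF between and LSF on top. The rise over BSF was 3.33-fold in LSF (1.74 ± 0.08, edgeR, adjusted p = 2.417e-24) and 2.09-fold in DSF (1.06 ± 0.09, adjusted p = 4.824e-14). LSF exceeded DSF by 0.67 ± 0.08 (adjusted p = 3.791e-10). The BSF libraries lay furthest apart, in proportion, for this gene, and both rises still passed without either of them (the lower values came without BSF replicate 1, at 1.54 in LSF and 0.87 in DSF).

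Cyp2b10, the classical CAR target among mouse oxidases, had a narrow range once con was set aside. It was 121 and 113 CPM in BSF and 119, 126 and 111 CPM in BSF_C. The LSF libraries had 166, 156 and 163 CPM and the DSF libraries 102 and 101 CPM. The LSF libraries were the highest 3 and the DSF libraries the lowest 2 of these 10. Cyp2b10 rose 1.39-fold in LSF over BSF (0.47 ± 0.07, edgeR, adjusted p = 1.647e-07) and 1.60-fold over DSF (0.68 ± 0.07, adjusted p = 2.131e-11). Its difference of DSF from BSF was -0.20 ± 0.08 and did not pass (adjusted p = 0.07352). Against BSF_C it fell by 0.23 ± 0.07 in DSF (adjusted p = 0.02238), a call lost without BSF_C replicate 1 (adjusted p = 0.0631) or 2 (0.147), without DSF column S2 (0.139) or S3 (0.187), and with DESeq2's Wald test (0.0564).

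**Figure D1:**
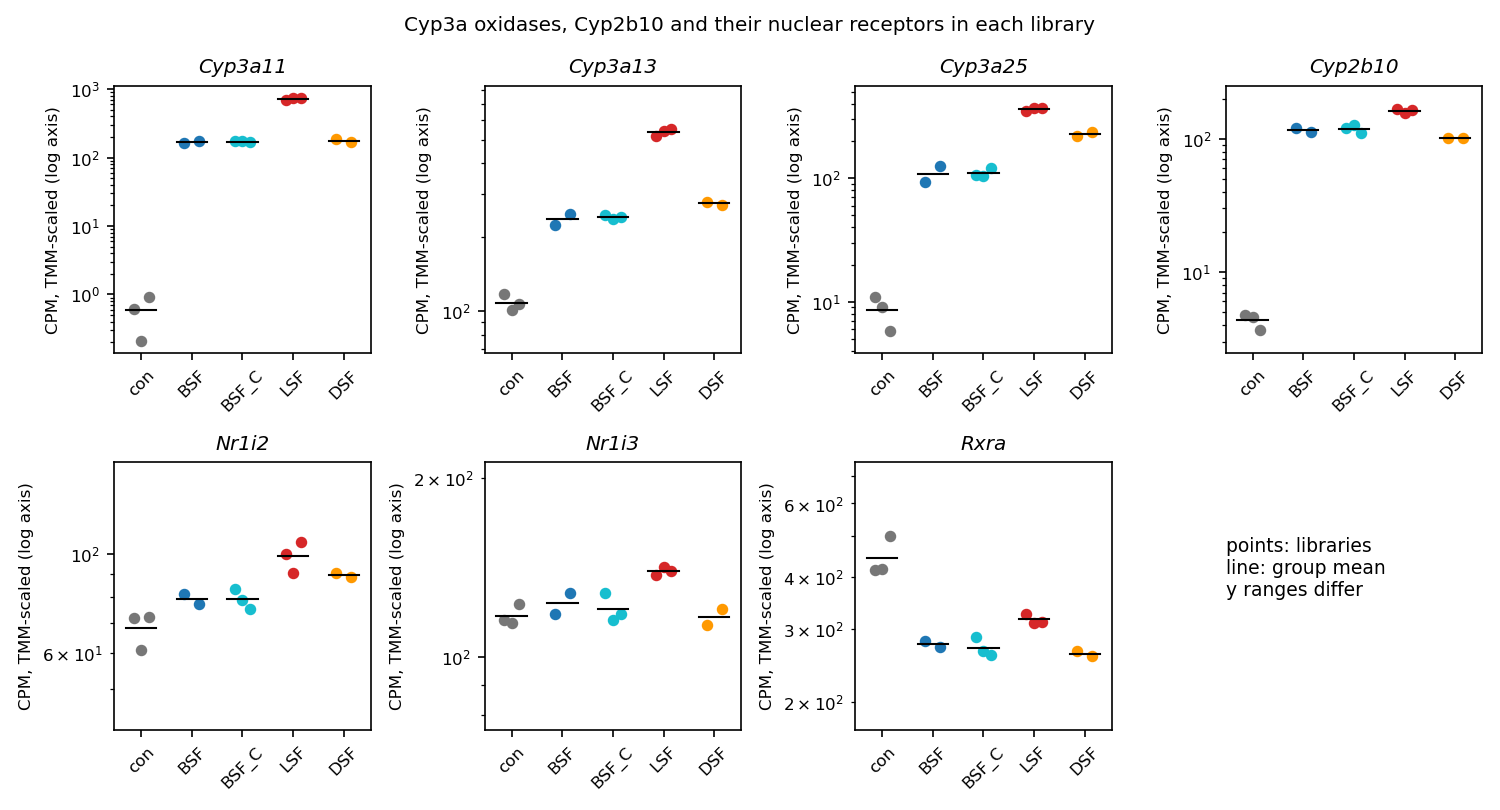
Level of each of the 7 genes in every library, in CPM on a log axis whose range differs between genes, by group; points are libraries and lines are group means. LSF libraries sit highest for the 4 oxidases, Cyp3a25 is also raised in DSF, and con is near 0 for Cyp3a11 and above the other groups for Rxra.

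In LSF over BSF, the receptors moved less than Cyp2b10 and far less than the Cyp3a genes. In DSF against BSF, only Cyp3a25 moved far more than the receptors (1.06), and the step of Nr1i2 (0.18) exceeded that of Cyp3a11 (0.08). Nr1i2, which encodes PXR, was 99.7, 90.4 and 106 CPM in LSF. It was 81.2 and 77.1 CPM in BSF and 83.5, 79.0 and 75.4 CPM in BSF_C, and the DSF libraries had 90.5 and 88.9 CPM. DSF lay between BSF and LSF, and its higher library reached the lowest LSF library. Nr1i2 rose 1.25-fold in LSF over BSF (0.32 ± 0.08, edgeR, adjusted p = 0.001144). Neither DSF against BSF (0.18 ± 0.09, adjusted p = 0.172) nor LSF against DSF (0.14 ± 0.08, adjusted p = 0.2496) passed.

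Rxra, the shared partner of PXR and CAR, was 325, 310 and 312 CPM in LSF. The BSF libraries had 280 and 271 CPM, those of BSF_C 286, 265 and 259 CPM and those of DSF 266 and 257 CPM. The LSF libraries were the highest of these 10, and the other 3 groups overlapped. Rxra rose 1.15-fold in LSF over BSF (0.20 ± 0.06, edgeR, adjusted p = 0.01687) and 1.21-fold over DSF (0.27 ± 0.06, adjusted p = 0.001468). The first of these was lost without BSF replicate 1 (adjusted p = 0.062), BSF replicate 2 (0.159) or LSF replicate 1 (0.0738), and with libraries scaled to their totals alone (0.12, 0.0975), and the other without DSF column S3 (0.25, 0.0569). Its paralog Rxrb, another RXR partner subunit, had group means of 62.9 to 69.3 CPM outside con, and its difference of LSF from BSF was -0.08 ± 0.08 (adjusted p = 0.5189). Rxrg had at most 43 counts over the 10 libraries and was not tested.

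Nr1i3, which encodes CAR, was 138, 142 and 140 CPM in LSF. The BSF libraries had 118 and 128 CPM, those of BSF_C 128, 116 and 119 CPM and those of DSF 113 and 120 CPM. All 3 LSF libraries lay above the other 7, whose groups overlapped. Nr1i3 rose in LSF over BSF by 0.18 ± 0.07 (edgeR, adjusted p = 0.03566) and over DSF by 0.26 ± 0.07 (adjusted p = 0.004347). The call against BSF was lost without any single BSF or LSF library (adjusted p from 0.0525 without BSF replicate 2 to 0.343 without BSF replicate 1) with library totals alone (0.10, 0.208) and without the filter on low counts (0.18, 0.0564), and that against DSF without DSF column S2 (0.21, 0.143). These reads cannot be told apart from those of Tomm40l, a mitochondrial import gene on the opposite strand that covers 66.2% of the principal Nr1i3 transcript, because the strand setting of the counting is not given in the sources used here. The Tomm40l count was 93.0% to 101.5% of the Nr1i3 count in each library, and Tomm40l differed between LSF and BSF by 0.13 ± 0.07 (adjusted p = 0.1419), so Nr1i3 values are uncertain.

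Counted over the genes, 7 of 7 rose in LSF over BSF (edgeR, adjusted p under 0.05), where 29.3% of all tested genes were called, 15.9% higher and 13.4% lower. The median log2 fold change of the 7 was 0.47, against -0.01 for all genes. In LSF against DSF 6 rose, all but Nr1i2 (15.9% of all genes called, 8.97% higher and 6.91% lower). DSF against BSF called 2, Cyp3a25 and Cyp3a13, both higher (12% of all genes called, 6.26% higher and 5.77% lower), with a median of 0.08 against 0.00, and only Cyp3a25 without BSF replicate 1 or either DSF library. These 3 comparisons share libraries, so their counts are not separate observations. Without BSF replicate 1, BSF replicate 2 or LSF replicate 1, 5 genes were called in LSF over BSF, the exceptions being Nr1i3 and Rxra, and 6 without LSF replicate 2 or 3, the exception being Nr1i3. Scaling to library totals alone turned the balance over all genes, with 54.2% of calls higher in LSF than BSF under trimmed means and 37.1% under totals, and 56.5% and 38% for LSF against DSF.

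**Figure D2:**
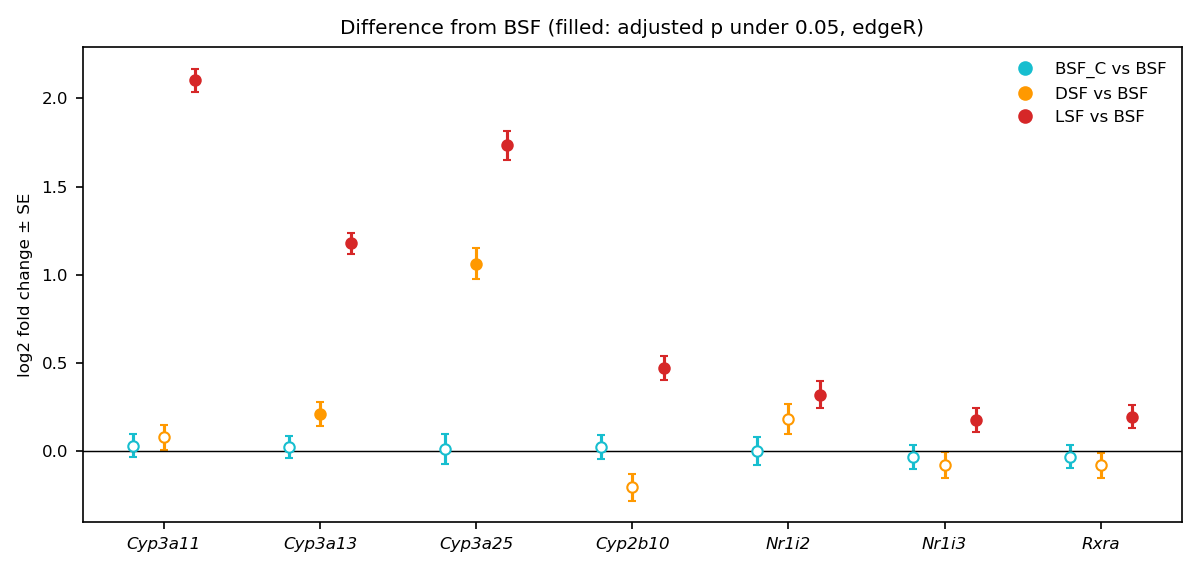
Log2 fold change of each gene against BSF in BSF_C, DSF and LSF, with SE bars from the edgeR test and filled points for adjusted p under 0.05. LSF points lie above 0 for all 7 genes, the highest DSF point is Cyp3a25 at 1.06, and BSF_C points lie between -0.03 and 0.03.

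No difference between BSF_C and BSF was detected for these genes. Fitted differences of BSF_C from BSF lay between -0.03 and 0.03 on the log2 scale, and 0 of 7 were called by edgeR, 0 had an unadjusted p under 0.05 and 0 were called by DESeq2, where 0.133% of all genes were called (0.105% higher and 0.028% lower). With BSF_C in place of BSF as the reference, 7 of 7 rose in LSF (32.7% of all genes called, 17.1% higher and 15.6% lower, 52.4% of calls higher and 36.7% under library totals). The log2 fold changes were 2.07 ± 0.06 for Cyp3a11, 1.15 ± 0.05 for Cyp3a13, 1.72 ± 0.07 for Cyp3a25 and 0.45 ± 0.06 for Cyp2b10. Nr1i2 gave 0.32 ± 0.07, Nr1i3 0.21 ± 0.06 (adjusted p = 0.004758) and Rxra 0.23 ± 0.06 (adjusted p = 0.001685). DSF against BSF_C called 2 higher, Cyp3a25 (1.05 ± 0.08, adjusted p = 9.718e-16) and Cyp3a13 (0.19 ± 0.06, 0.0339), and 1 lower, Cyp2b10 (11.9% of all genes called, 5.99% higher and 5.87% lower). The Cyp3a13 call did not pass without any single BSF_C or DSF library (adjusted p from 0.051 without BSF_C replicate 1 to 0.259 without DSF column S2) or without LSF replicate 2 (0.0509).

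The mean of LSF and DSF, the patterns with food at ZT12, was also set against BSF, where food began at ZT16. Here 4 of 7 rose (21.4% of all genes called, 11.5% higher and 9.87% lower, 53.8% of calls higher and 39.1% under library totals). Cyp3a25 rose by 1.40 ± 0.08, Cyp3a11 by 1.09 ± 0.06, Cyp3a13 by 0.69 ± 0.06 and Nr1i2 by 0.25 ± 0.07 (edgeR, adjusted p = 0.008531). Cyp2b10, Nr1i3 and Rxra did not pass, at 0.13 ± 0.06 (adjusted p = 0.1253), 0.05 ± 0.06 and 0.06 ± 0.06. Cyp2b10 was called higher with only the groups compared in the fit (0.13, adjusted p = 0.0333) and with con left out (0.14, 0.0466). The mean joins unlike levels for Cyp3a11, 723 CPM in LSF and 178 CPM in DSF, and the Nr1i2 call was lost without BSF replicate 2 (0.21, adjusted p = 0.172).

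Because the paralogs moved unequally, the make-up of the Cyp3a pool differed between groups. Compared per transcript length (CPM per kilobase of the principal transcript), the level of Cyp3a13 in BSF was 80.3 ± 5.9 (SD, n = 2), that of Cyp3a11 71.7 ± 3.7 and that of Cyp3a25 54.4 ± 11.5. In LSF the level of Cyp3a11 was 308 ± 11 (SD, n = 3), above 182 ± 6 for Cyp3a13 and 182 ± 5 for Cyp3a25. In DSF Cyp3a25 was the highest at 114 ± 7 (SD, n = 2), with Cyp3a13 at 93.1 ± 1.8 and Cyp3a11 at 75.9 ± 6.4. By this measure a different paralog had the highest mean level in each of the 3 skipping patterns. Cyp3a13 and Cyp3a11 in BSF were close. The ranking depends on the length chosen. All annotated exons of Cyp3a11 cover 5093 bases, against 2344 in its principal transcript, and other lengths were not tried. In plain CPM, Cyp3a13 had the highest mean in DSF (275, against 229 for Cyp3a25) and also in BSF.

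The CPM ratio of Cyp3a25 to Cyp3a13 (with 0.5 CPM added to each) was 0.413 and 0.502 in BSF and 0.428, 0.442 and 0.506 in BSF_C. It was 0.679, 0.685 and 0.669 in the LSF libraries and 0.784 and 0.880 in the DSF libraries. All 5 LSF and DSF libraries lay above all 5 BSF and BSF_C libraries, where the feeding window of BSF_C is not known here. The difference of the mean log2 ratio between LSF with DSF and BSF with BSF_C was 0.69. A two-sided exact permutation test over single libraries gave p = 0.00794, the smallest possible (0.0238 adjusted over 3 ratios). It treats libraries of different groups on a side as exchangeable replicates, although the LSF and DSF libraries did not overlap. The groups themselves are too few for such a test. The pooling was chosen with earlier results of these data known. The ratio of Cyp3a11 to Cyp3a25 had means of 1.98 in LSF, 1.56 in BSF and BSF_C alike, and 0.778 in DSF, so that LSF and DSF lay on opposite sides of BSF. Its pooled difference was -0.19 (exact permutation p = 0.556, adjusted 0.556). The ratio of Cyp3a11 to Cyp3a13 had means of 1.34 in LSF, 0.709 in BSF, 0.712 in BSF_C and 0.646 in DSF, with a pooled difference of 0.50 (exact permutation p = 0.167, adjusted 0.25).

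**Figure D3:**
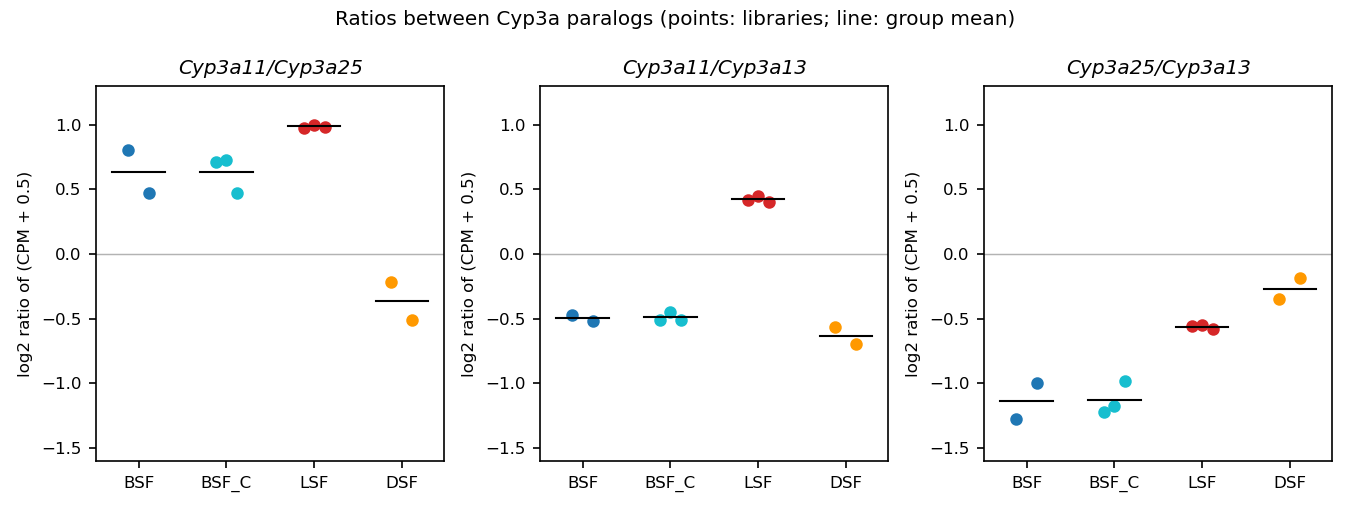
Log2 ratio of CPM + 0.5 between the 3 Cyp3a paralogs in each library outside con (points), by group, with lines at group means. LSF is highest for Cyp3a11 over Cyp3a13, DSF is lowest for Cyp3a11 over Cyp3a25, and LSF and DSF both lie above BSF and BSF_C for Cyp3a25 over Cyp3a13.

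Sequence sharing between paralogs limits these ratios little for Cyp3a11 and more for Cyp3a25. Of 100-base stretches of the annotated transcripts, 0.141% in Cyp3a11, 6.79% in Cyp3a25 and 0% in Cyp3a13, Cyp2b10, Nr1i2 and Rxra also occurred in another gene, and at 50 bases the shares were 6.73% for Cyp3a11, 26.8% for Cyp3a25 and 8.70% for Cyp2b10. The sharing partner of Cyp3a25 at 100 bases was Cyp3a59, which had 31 counts over the 10 libraries outside con. Cyp3a16, Cyp3a41a, Cyp3a41b and Cyp3a57 had no count in any library and Cyp3a44 had 10 in all, so none of the 6 other Cyp3a genes listed was tested. How reads mapping to several genes were treated is not given in the sources used here.

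In con, the oxidases were low. Cyp3a11 had 3, 1 and 4 counts (0.619, 0.208 and 0.921 CPM), Cyp3a25 was 10.9, 9.15 and 5.76 CPM and Cyp2b10 was 4.75, 4.57 and 3.69 CPM, all far below every other library. Cyp3a13 was 117, 101 and 106 CPM, less than in any other library. Relative to the 8 counts of con, the summed Cyp3a11 count, corrected for depth, was 1263 times as high in LSF (exact 95% interval 641 to 2927, counting error only). The ratio was 295 for BSF (149 to 684), 301 for BSF_C (153 to 698) and 311 for DSF (158 to 722). For Cyp3a25 the ratio ran from 12.7 (10.5 to 15.3) in BSF to 41.8 (34.9 to 50.4) in LSF, and for Cyp2b10 from 23.2 (18.0 to 30.5) in DSF to 37.1 (28.8 to 48.6) in LSF. Cyp3a13 rose by 1.13 to 2.31 on the log2 scale over the 4 groups.

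Of the receptors, only Nr1i2 was lower in con than in every other library, as the oxidases were, and by less than any of them. Nr1i2 was 71.9, 60.9 and 72.3 CPM in con, and its fitted difference from con was 0.53 in LSF and 0.39 in DSF, with 0.22 in BSF_C (adjusted p = 0.01161) and 0.21 in BSF (adjusted p = 0.02538). The last 2 no longer passed without con replicate 2 (adjusted p = 0.133 and 0.184). The BSF_C call was also lost without BSF_C replicate 1 (0.0804), and that of BSF without BSF replicate 1 (0.17) or 2 (0.051) and with DESeq2's size factors (0.0518) or Wald test (0.0768). Rxra was 415, 417 and 502 CPM in con, above every other library, and was lower in every other group, having dropped by 0.49 (LSF), 0.69 (BSF), 0.72 (BSF_C) and 0.77 (DSF). Nr1i3 was 115, 114 and 123 CPM in con and was higher in LSF alone (0.25, edgeR, adjusted p = 0.0004321). Its difference in DSF was -0.01 (adjusted p = 0.9538) but 0.15 with library totals alone (0.0395), and with totals it was also called higher in BSF (0.25, 0.00101) and BSF_C (0.21, 0.00205).

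In number, 5 of 7 rose and 1 fell in BSF, BSF_C and DSF against con, and 6 rose and 1 fell in LSF. Those shares stand beside a background in which most genes were called: 70.2% for BSF (38.3% higher, 31.9% lower), 73% for BSF_C (39.8%, 33.2%), 72% for LSF (38.9%, 33%) and 67.7% for DSF (36.6%, 31.1%). The median of all genes lay at 0.10 to 0.12 in these comparisons with trimmed means and at 0.20 to 0.29 with library totals. All 4 comparisons share the con libraries. No batch is labelled, and con and any batch of its own cannot be told apart; the part of the enterocyte and keratinocyte markers in these differences was not tested. Cyp2b19, a Cyp2b gene known from skin keratinocytes, averaged 4.40 ± 1.11 CPM over the 3 con libraries (SD) and was at 0 counts in each of the 10 remaining ones, while Cyp2b9, Cyp2b13 and Cyp2b23 had at most 3 counts in all and were not tested.

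Among the feeding patterns, the summed level of absorptive enterocyte markers was highest in LSF, as were the oxidases, while single markers differed. The sum of 10 absorptive enterocyte markers was 33250 to 33990 CPM in LSF, 27450 to 29660 CPM over BSF and BSF_C together, and 22200 to 22670 CPM in DSF. Apoa4 and Apoa1 made up most of this sum, with means of 14029 and 6736 CPM in BSF and 9381 and 5392 CPM in DSF, so it mainly follows these genes. In LSF against BSF 8 of the 10 rose, from Lct (0.17 ± 0.06) to Slc15a1 (1.18 ± 0.09), Fabp1 fell by 0.37 ± 0.08 and Apoa4, the most abundant of these at 14029 CPM in BSF, differed by 0.02 ± 0.05 (edgeR, adjusted p = 0.8059). In DSF against BSF 3 rose, Slc15a1 among them (0.33 ± 0.10), and 4 fell, and in LSF against DSF 10 of 10 rose. The shares of all tested genes called higher and lower were 15.9% and 13.4% in LSF against BSF. They were 6.26% and 5.77% in DSF against BSF, and 8.97% and 6.91% in LSF against DSF. Upper villus genes (6 of 6 present) summed to 455 to 473 CPM in BSF, 635 to 647 in LSF and 426 to 430 in DSF, and crypt genes (5 of 5) to 2188 to 2293, 1607 to 1614 and 2086 to 2136 CPM. Of the upper villus genes 3 rose in LSF against BSF (Ada, Klf4 and Creb3l3), beside 15.9% of all genes, and 3 were not called. The rise of Slc15a1 in LSF was as large as that of Cyp3a13 (1.18 each), and the part of these markers in the differences of the 7 genes was not tested. Leukocyte markers, which the sort should remove, summed to 68.0 to 75.1 CPM in BSF, 113 to 114 in LSF and 109 to 111 in DSF, and heart muscle markers to 100 to 104, 257 to 306 and 282 to 290 CPM. Of 15 hepatocyte genes, Cyp2c29 made up 28.8 CPM of the LSF sum of 36.9 to 37.8 CPM, and the defining gene Alb had no count in BSF, LSF or DSF.

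The wider set of genes that PXR and CAR are known to induce was described from a list of 40, of which 36 were tested. In LSF against BSF, 24 rose and 0 fell, with a median of 0.44 against -0.01 for all genes. DSF against BSF gave 8 higher and 4 lower, with a median of 0.00, and LSF against DSF gave 25 higher and 1 lower with a median of 0.48. Of all tested genes, 15.9% were called higher and 13.4% lower in LSF against BSF. These shares were 6.26% and 5.77% in DSF against BSF, and 8.97% and 6.91% in LSF against DSF. Gstm1, a glutathione transferase, was 77.6 ± 4.1 CPM in BSF (SD, n = 2), 254 ± 12 in LSF (n = 3) and 153 ± 7 in DSF (n = 2), and rose by 1.71 ± 0.07 in LSF and 0.97 ± 0.08 in DSF. Cyp2c55, an oxidase of fatty acids, went from 22.9 ± 1.9 CPM in BSF to 90.6 ± 3.9 in LSF and 67.0 ± 1.8 in DSF (1.98 ± 0.10 and 1.54 ± 0.11). Gstm3, another glutathione transferase, was the 1 gene of the list lower in LSF than in DSF (-0.24 ± 0.05), having risen by 0.94 ± 0.06 in LSF and 1.18 ± 0.06 in DSF over BSF. Genes named from the lists were picked for a small p in LSF and DSF against BSF, so a rise in both patterns was favoured by the choice. Cyp2c29, chosen after its values were seen, was at 3.11 ± 0.97 CPM in BSF, 28.8 ± 0.2 in LSF and 3.08 ± 0.31 in DSF.

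Genes that serve the P450s with electrons and haem showed smaller steps. Of 13 tested, 6 rose and 0 fell in LSF against BSF (median 0.20), and 2 rose and 1 fell in DSF (median 0.08). Among all tested genes, 15.9% were called higher and 13.4% lower in LSF, with a median of -0.01. In DSF 6.26% were called higher and 5.77% lower, with a median of 0.00. Cyb5r3, the reductase of cytochrome b5, was 569 ± 23 CPM in BSF, 914 ± 14 in LSF and 603 ± 3 in DSF (0.68 ± 0.06, edgeR, adjusted p = 9.54e-14, and 0.08 ± 0.06, 0.4561). Cyb5a, cytochrome b5 itself, rose by 0.38 ± 0.08 in LSF, and Fech, which inserts iron into haem, rose by 0.37 ± 0.09 in LSF and 0.31 ± 0.10 in DSF. Por, the P450 reductase, chosen after its values were seen, was 213 ± 6 CPM in BSF, 300 ± 8 in LSF and 185 ± 1 in DSF.

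Of 14 other receptors that pair with RXR, 5 rose and 0 fell in LSF against BSF (median 0.27) and 3 rose and 0 fell in DSF (median 0.17), beside 29.3% and 12% of all genes called and medians of -0.01 and 0.00. Nr4a1, an early-response receptor, rose by 1.18 ± 0.15 in LSF and 0.77 ± 0.17 in DSF. Thra, a thyroid hormone receptor, rose by 0.39 ± 0.07 and 0.25 ± 0.08, and Ppard, a fatty acid receptor, rose in DSF (0.44 ± 0.07) with a difference of 0.01 ± 0.06 in LSF (adjusted p = 0.9054). Among 22 tested coregulators and upstream regulators of PXR and CAR, 5 rose and 3 fell in LSF and 1 rose and 3 fell in DSF (medians 0.04 and -0.09, against -0.01 and 0.00 for all genes). These calls are 8 and 4 of 22 beside 29.3% and 12% of all genes, so the list gave no share far from the background. Hsp90aa1, a chaperone that holds CAR in the cytoplasm, fell by 0.69 ± 0.06 in LSF and by 0.38 ± 0.07 in DSF, and Ppargc1a, a coactivator, rose by 0.46 ± 0.10 and 0.36 ± 0.11. Tef, a clock-driven factor that acts upstream of CAR in liver, was 68.5 ± 4.6 CPM in BSF, 84.9 ± 5.5 in LSF and 36.5 ± 0.1 in DSF, rising by 0.31 ± 0.08 in LSF and falling by 0.90 ± 0.10 in DSF.

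**Figure D4:**
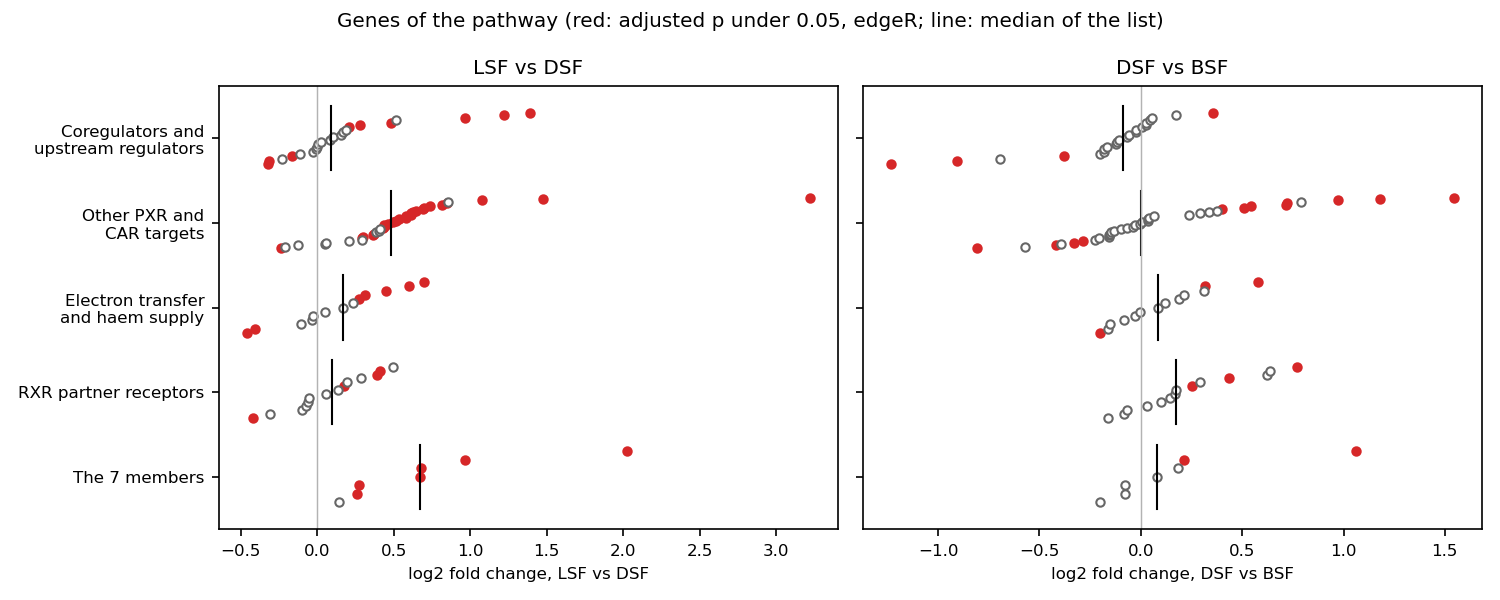
Log2 fold change of each tested gene of 4 gene lists and of the 7 genes (points, red for adjusted p under 0.05) in LSF against DSF and in DSF against BSF, with a line at each median. Other PXR and CAR targets have a median of 0.48 in LSF against DSF and 0.00 in DSF against BSF, and the 7 genes have medians of 0.67 and 0.08.

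The genes most like each member were ranked over the 10 libraries outside con among 10572 genes by Pearson correlation of log2 CPM, a description over libraries that share groups and depth. For Cyp3a11 they were Pck1 (r = 0.998), Mttp, Pdk4, Ndrg1 and Alpi, and for Cyp3a13 Cirbp (0.995), Akr1b7, Pck1, Pdk4 and Rnase4. Pck1 and Pdk4, both fasting-responsive metabolic enzymes, were thus common to both. Cyp3a25 had other neighbours, Abcc2 (0.994), an efflux pump for conjugates, Gstm1 (0.99), Egr1, Stom and Maf. Cyp2b10 was closest to Ccdc152 (0.985), Retsat, Ace, Slc6a8 and Foxq1. The receptors gave Tmem183a (0.979), Tsc22d4, Afmid, Hip1r and Foxo3 for Nr1i2, Sec31a (0.984), Tomm40l (0.978), Tcf25, Minpp1 and Vwa8 for Nr1i3, and Sowaha (0.978), Hist1h1c, Bahd1, Herpud1 and Zfp703 for Rxra. Among the 7 genes, r was 0.991 between Cyp3a11 and Cyp3a13, 0.856 between Cyp3a11 and Cyp3a25, 0.916 between Cyp3a11 and Cyp2b10 and 0.594 between Cyp3a25 and Cyp2b10. Between oxidases and receptors, r ran from 0.64 (Cyp3a25 and Rxra) to 0.937 (Cyp2b10 and Rxra). Cyp3a25 and Nr1i2 had 0.867, Cyp3a11 and Nr1i2 0.798, Cyp2b10 and Nr1i3 0.838, and Cyp2b10 and Nr1i2 0.642.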

How the data were processed

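Polyadenylated RNA of sorted jejunal epithelial cells was sequenced, per the labels' protocols. The authors deposited raw counts per gene symbol, whole numbers without normalization. FastQC 0.11.8, cutadapt 2.9, STAR 2.7.2e, DESeq2 1.32.0 and the builds GRCm38 and mm10 appear in the submitters' processing notes, with no settings. Annotation, strand setting and the rule for multi-mapping reads are not given in the sources used here. Genes were filtered with filterByExpr (14300 kept, 99.91% of counts) and scaled by trimmed means in edgeR 4.0.16 (R 4.3.3). The quasi-likelihood test was two-sided, in 1 fit of all 13 libraries by group without covariates (8 residual degrees of freedom), adjusted over all tested genes by Benjamini-Hochberg at a threshold of 0.05. SE is the log2 fold change over the square root of F, not the coefficient's own error, and is too small where a group has few counts. The procedure was also run on counts simulated with the fit's own spread, which checks the code and does not test the calls made here. The members, lists and tests were chosen with earlier results of these data known. Named besides the members were the 3 genes per list with the smallest p in LSF and DSF against BSF, all genes of lists under 6, and the 5 genes most like each member (mean of at least 5 CPM), unless said otherwise. The DSF replicates are numbered 1 and 2 in the labels but S2 and S3 in the table, so they carry no number here. Alternatives were DESeq2's size factors, library totals, no filter, DESeq2 1.42.0's Wald test, fits of only the groups compared or without con, a replicate block, other pseudocounts for ratios, and each library left out.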

Additional observations from a re-analysis of the deposited data

How the results depend on the processing

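With 2 or 3 libraries a group, small steps depended on single libraries, and low counts limited con. Over the alternatives, 1450 single-gene values kept direction and side of the threshold, and 22 that were never called changed sign. Another 37 lost the call and 9 gained it. The remaining 1, Nr1i3 in DSF against con, changed sign and became called. It was -0.01 in the main fit (edgeR, adjusted p = 0.9538) and 0.15 with library totals (0.0395). The median of all genes in that comparison was 0.10 and 0.26 in turn, and the cause was not tested. Cyp3a11, Cyp3a13, Cyp3a25 and Cyp2b10 stayed called in LSF over BSF in each alternative run. Cyp2b10 in DSF against BSF became called lower with library totals (-0.22, adjusted p = 0.038), with only the groups compared in the fit (0.0134), with con left out (0.0198), and without con replicate 2 (0.0472) or 3 (0.0241).

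Genes called in BSF_C against BSF numbered 19, and 30 without the filter, 2 with DESeq2's Wald test, 32 with only the groups compared and 29 with con left out. In DSF against BSF they numbered 1720, and 1111 with the Wald test. Leaving out 1 library gave 12 to 27 genes for BSF_C against BSF (lowest without BSF_C replicate 2), 2557 to 4857 for LSF against BSF (4190 with all, 2583 without BSF replicate 2), 798 to 2329 for DSF against BSF, 848 to 2197 for DSF against BSF_C (1696 with all), 1288 to 2776 for LSF against DSF (2271 with all) and 1467 to 3750 for LSF and DSF against BSF (3055 with all). Apart from BSF_C against BSF, the lowest counts came without a BSF or DSF library, which leaves that group 1 library assumed to vary like the others. Members called ranged from 1 to 3 in DSF against BSF and in DSF against BSF_C. The pooled log2 ratio of Cyp3a11 to Cyp3a25 ranged from -0.33 to 0.05 and that of Cyp3a25 to Cyp3a13 from 0.62 to 0.72.

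Replicate numbers showed no pairing over all tested genes. Deviations of same-numbered libraries correlated at -0.067 to 0.03 (15 pairs), and those of differently numbered libraries at -0.043 to 0.052 (30 pairs). What the numbers mark is not given in the labels, and a link limited to few genes was not tested. With the replicate block, over libraries whose column carries a number, 5 members were called in LSF against BSF (7 without the block in the same libraries), Nr1i3 and Rxra missing the threshold at 0.079 and 0.053. Genes called there were 3598 with the block and 4063 without.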
